A study of Mus musculus with 6 samples.

Results

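The genes described here were 9 genes expressed by microglia and macrophages, *Cx3cr1*, *P2ry12*, *Csf1r*, *Aif1*, *Tmem119*, *C1qa*, *C1qb*, *Mrc1* and *Cd68*, and *Spp1*, which encodes osteopontin. They are 10 of the 16745 genes that could be tested in hippocampi of newborn mice, and all 10 were detected in every library. They were chosen by name with their difference between *Mov10* Deletion and WT already known, so the differences below are a description and carry no test. *Spp1* had 20.3 ± 3.93 CPM (SD, n = 3; CPM are counts scaled to the library's total) in *Mov10* Deletion and 7.14 ± 1.38 CPM in WT, with all 3 Deletion libraries above all 3 WT libraries. The summed level of the 9 myeloid genes was 69.5 ± 15.9 CPM in Deletion and 67.0 ± 8.93 CPM in WT, and there the libraries of the genotypes overlapped.

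Microglia are the resident macrophages of the brain. They arise from yolk sac progenitors, survive on signals through the CSF1 receptor, and clear dying cells and synapses while circuits form. Other macrophages live at the borders of the brain, in the meninges, the choroid plexus and the walls of vessels, and carry the mannose receptor MRC1. Osteopontin is a secreted phosphoprotein known from bone matrix that binds integrins and CD44. In the brain it is made by some microglia, by border macrophages and by some neurons.

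The libraries came from hippocampi at postnatal day 0, with the pups of a sample pooled, and 3 libraries carried each genotype. The *Mov10* Deletion mouse combined a floxed *Mov10* allele, cut by Cre recombinase expressed from the *Emx1* locus, with a mutant *Mov10* allele carried in the germline. The WT mice were of the C57BL/6 strain and carried neither allele. *Emx1* drives Cre in the cortical and hippocampal cells of the excitatory lineage, to which microglia do not belong, whereas the germline allele was present in all cells. The sexes of the pooled pups are not given in the sources used here. In bulk tissue, fewer cells of a type and less RNA per cell cannot be told apart.

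Each library held between 71400300 and 86207971 estimated counts. *Mov10* was measured at 2.45, 2.13 and 2.09 CPM in Deletion replicates 1, 2 and 3 and at 4.81, 4.75 and 4.8 CPM in WT replicates 1, 2 and 3. The summed level of 10 hippocampal neuron genes lay between 3108 and 3504 CPM over the 6 libraries. Deletion replicate 1 stood apart in genes of the meninges and the choroid plexus. Its 8 meningeal fibroblast genes summed to 233 CPM, against 61.0 and 76.3 CPM in the other Deletion libraries and 86.4 to 109.7 CPM in WT. Its 8 choroid plexus genes summed to 54.7 CPM, against 3.93 and 7.94 CPM in the other Deletion libraries and 10.2 to 18.9 CPM in WT. Most of that sum was *Ttr*, at 45.6 CPM there and at 0.786 and 3.75 CPM in the other Deletion libraries. Of 14 genes of blood leucocytes, 1 passed the filter, and their summed level lay between 1.08 and 1.64 CPM.

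Over all genes tested, 24.7% were called between the genotypes by limma-trend, that is, at an adjusted p under 0.05, 12.6% as higher in Deletion and 12.1% as lower. These were 2104 higher and 2033 lower genes, and with upper-quartile normalization 2320 and 1491. In 20.4% of the genes all Deletion libraries lay above all WT libraries, and in 21.2% they lay below. Of the 10 members 3 were called, each of them higher (*Spp1*, *Mrc1* and *Cd68*), and 2 (*Spp1* and *Cd68*) did not overlap between the genotypes. Because the members were chosen on this contrast, nothing is read from these counts or from the calls of members given below. Without Deletion replicate 1 the log2 fold change was 1.34 for *Spp1*, 0.38 for *Cd68* and 0.22 for *Mrc1*. It was -0.28 for *C1qa* and -0.50 for *Tmem119*.

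The receptors by which microglia read their surroundings overlapped between the genotypes. *Cx3cr1* (GRCm39, chr9:119877749-119898945, minus strand) encodes the fractalkine receptor, through which neurons signal to microglia. It was measured at 8.30, 5.49 and 5.47 CPM in Deletion replicates 1, 2 and 3 and at 5.42, 6.57 and 4.98 CPM in WT replicates 1, 2 and 3. Deletion replicate 1 was the highest library, and the other Deletion libraries lay inside the WT range. The fitted log2 fold change of *Cx3cr1*, Deletion over WT, was 0.11 with a standard error (SE) of 0.105.

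*P2ry12* (chr3:59123682-59170429, minus strand), the ADP receptor that steers microglial processes, was measured at 7.0, 5.49 and 4.99 CPM in Deletion and at 4.84, 5.79 and 4.42 CPM in WT. Its order of libraries was like that of *Cx3cr1*, with Deletion replicate 1 highest, WT replicate 2 next and WT replicate 3 lowest. *P2ry12* had a log2 fold change of 0.16 (SE 0.115). It lies on the chromosome of *Mov10*, 45.6 Mb from it. Its counts were divided by the quantification among 5 annotated transcripts, the largest of which, P2ry12-202, held between 45.6% and 69.9% of them in Deletion and between 50.1% and 64.6% in WT.

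*Csf1r*, the receptor for the survival factors CSF1 and IL-34, was measured at 27.4, 19.8 and 20.8 CPM in Deletion and at 21.7, 29.3 and 22.7 CPM in WT. The highest library was WT replicate 2, followed by Deletion replicate 1, and the genotypes overlapped. Its log2 fold change was -0.14 (SE 0.10). On the log2 scale of TPM (a measure of transcript abundance that corrects for length) it was 0.23, with the opposite sign. The short transcript Csf1r-205 was listed at 0 TPM in WT replicate 1 and between 7.90 and 12.4 TPM in the other 5 libraries, so the summed TPM of *Csf1r* was 10.8 in that library and 17.1 to 26.0 elsewhere.

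*Tmem119* (chr5:113931781-113938577, minus strand), a surface protein that marks microglia, and *Aif1* (chr17:35387384-35395053, minus strand), which encodes the actin-binding protein IBA1, were the members with the fewest counts. *Tmem119* was measured at 1.71, 1.14 and 1.49 CPM in Deletion and at 1.53, 2.32 and 2.07 CPM in WT. Its log2 fold change of -0.39, with an SE of 0.164, was the lowest of the 10 members, and 1 WT library lay within the Deletion range. *Aif1* was measured at 1.47, 0.890 and 0.995 CPM in Deletion and at 1.14, 0.834 and 0.689 CPM in WT. The *Aif1* values of the genotypes overlapped, at a log2 fold change of 0.17 (SE 0.168). Between 53.0 and 119.9 estimated counts stood behind each *Aif1* value and between 87.0 and 175.0 behind each *Tmem119* value.

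*C1qa* and *C1qb* encode chains of C1q, the molecule that starts the classical complement pathway and tags synapses for removal. Both lie with *C1qc* within 20.2 kb of chromosome 4 (chr4:136606009-136626161). *C1qa* was measured at 12.7, 8.60 and 8.88 CPM in Deletion and at 9.84, 11.6 and 11.1 CPM in WT. *C1qb* was measured at 12.6, 9.37 and 9.61 CPM in Deletion and at 9.70, 12.4 and 10.4 CPM in WT. In both genes Deletion replicate 1 was the highest library and the other Deletion libraries were the lowest of the 6. The log2 fold changes were -0.12 for *C1qa* and -0.05 for *C1qb*, with SEs of 0.070 and 0.091. *C1qc*, the third chain of C1q, which is no member, had the same low and high Deletion libraries at 15.8, 12.2 and 12.3 CPM, against 12.6, 17.5 and 13.5 CPM in WT (log2 fold change -0.12, limma-trend, adjusted p = 0.476).

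*Mrc1* (chr2:14234151-14336926, plus strand), the mannose receptor of border macrophages, was the member with the widest spread among the Deletion libraries. It was measured at 12.8, 4.53 and 6.14 CPM in Deletion and at 4.10, 5.40 and 4.16 CPM in WT. Deletion replicate 1 had 2.4 times the mean of the other Deletion libraries, and Deletion replicate 2 lay below the highest WT library. *Mrc1* had a log2 fold change of 0.58 (SE 0.10). It was called higher under 11 of the 19 alternatives. The call was lost without Deletion replicate 1, at 0.22, and also without the factors of unwanted variation that the fit holds as covariates. It was lost with the replicate block or a sex score (the log2 summed level of Y-linked genes in each pool) in their place. The call was lost too without a filter on low counts, on log2 TPM, and by edgeR and by DESeq2, which were run without these factors. The same library was the highest in other genes of border macrophages: *Lyve1*, a hyaluronan receptor, was at 5.68 CPM there against 0.851 and 1.12 CPM in the other Deletion libraries, and *F13a1*, a coagulation factor subunit, was at 6.74 CPM against 0.969 and 1.91 CPM. These values were high in the same library as the meningeal and choroid plexus genes given above, and their part in the difference of *Mrc1* was not tested.

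*Cd68* (chr11:69555037-69557067, minus strand), a lysosomal glycoprotein of phagocytes, was measured at 3.79, 3.54 and 3.62 CPM in Deletion and at 2.56, 3.13 and 2.54 CPM in WT. All Deletion libraries lay above all WT libraries, and Deletion replicate 1 stood close to the other Deletion libraries at 1.06 times their mean. Its log2 fold change was 0.40 (SE 0.122), a 1.32-fold difference. It was called higher under 13 of the 19 alternatives. The call was lost without WT replicate 1 (0.36), without WT replicate 3 (0.36), with the sex score in place of the factors, without a filter on low counts, with a filter at 1 CPM and over protein-coding transcripts alone, while the log2 fold change stayed between 0.36 and 0.51. Of 16 listed genes of the lysosome, 5 were called by limma-trend, each of them lower, among them *Grn*, which encodes progranulin (log2 fold change -0.26, adjusted p = 0.00679), and *Scarb2*, a membrane protein of lysosomes (-0.25, adjusted p = 0.00414). *Tpp1*, a lysosomal peptidase, had a log2 fold change of 0.17 and did not pass (adjusted p = 0.123). The lysosomal protease *Ctsz*, which stood in another list, was called higher (0.29, adjusted p = 0.0356). Neurons as well as microglia express these lysosomal genes.

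*Spp1* was measured at 24.6, 16.9 and 19.4 CPM in Deletion replicates 1, 2 and 3 and at 6.39, 8.73 and 6.31 CPM in WT replicates 1, 2 and 3. The lowest Deletion library stood above the highest WT library, and within each genotype the library with the most *Spp1* was also the one with the most myeloid RNA. The fitted difference of *Spp1* was 1.47 on the log2 scale (SE 0.117), which is 2.76-fold. Of the 14426 tested genes whose mean reached 1 CPM, 6 had a larger log2 fold change. Without Deletion replicate 1 the mean of the other Deletion libraries was 18.1 CPM, 2.54 times the WT mean. The log2 fold change lay between 1.34 and 1.62 over the 19 other ways of computing it that were tried.

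**Figure D1:**
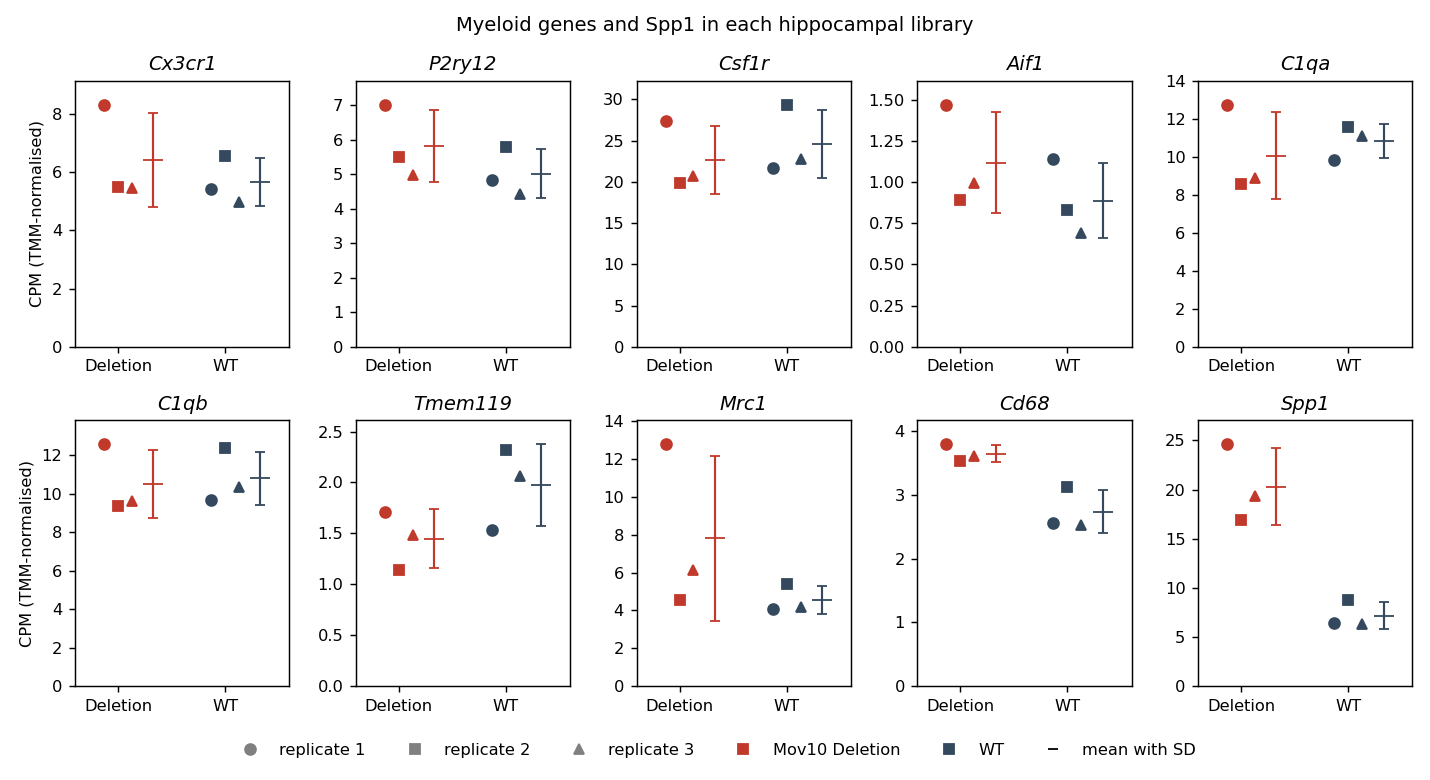
Level of each of the 10 genes in every library. The y axis of each panel is CPM after TMM normalization, points are libraries with the replicate number as shape, and bars give the mean with SD of 3 libraries. The genotypes are apart for *Spp1* (16.9 to 24.6 against 6.31 to 8.73 CPM) and *Cd68*, and Deletion replicate 1 is the highest library in 7 of the 9 myeloid panels.

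The level of the myeloid members varied between libraries of the same genotype. Deletion replicate 1 was the highest of the 6 libraries for 7 of the 9 myeloid members and the highest of its genotype for 9 of 9, and WT replicate 2 was the highest of its genotype for 8 of 9. The summed CPM of the 9 members was 87.8, 58.9 and 62.0 in Deletion and 60.8, 77.3 and 63.1 in WT. After the mean of each genotype was taken off the log2 CPM, the correlation across the 6 libraries was positive for all 36 pairs of myeloid members, with a median Pearson's r of 0.79 and a range of 0.05 to 0.99. Over the 6 libraries as measured, with the genotype means left in, it was positive for 32 of the 36 pairs, with a median of 0.67 and a range of -0.38 (*Tmem119* with *Cd68*) to 0.98. These points share library and depth, 6 libraries are few, and the values are given as a description.

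*Spp1* followed the same libraries within a genotype but at a different level in each genotype. With the genotype means taken off, its r with the 9 myeloid members lay between 0.46 (*Aif1*) and 0.98 (*Csf1r*), with a median of 0.87. As a percentage of the summed CPM of the 9 myeloid members, *Spp1* stood at 28.0%, 28.7% and 31.3% in Deletion and at 10.5%, 11.3% and 10.01% in WT. The Deletion mean was 29.3% ± 1.73 (SD, n = 3) and the WT mean 10.6% ± 0.654 (SD, n = 3). Deletion replicate 1, which was the highest library in CPM, was the lowest Deletion library as a share of the sum.

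The same division gave smaller and opposite differences among the myeloid members themselves. *Mrc1* made up 14.6%, 7.70% and 9.91% of the sum in Deletion and 6.74%, 6.99% and 6.60% in WT. *Csf1r* made up 31.2%, 33.7% and 33.5% in Deletion and 35.6%, 37.9% and 36.0% in WT. *Tmem119* made up 1.95%, 1.94% and 2.4% in Deletion and 2.52%, 3.00% and 3.28% in WT. Of the 9 shares, 3 (*P2ry12*, *Mrc1* and *Cd68*) were higher in all Deletion libraries, 4 (*Csf1r*, *C1qa*, *C1qb* and *Tmem119*) were lower in all, and 2 overlapped. In CPM, 20.4% of all tested genes were higher in all Deletion libraries and 21.2% lower in all. Such shares were not computed for other genes and the members were chosen on this contrast, so nothing is read from these counts. The 9 shares add up to the whole, so that a larger share of one lowers the others, and *Csf1r* weighs most in the sum.

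**Figure D2:**
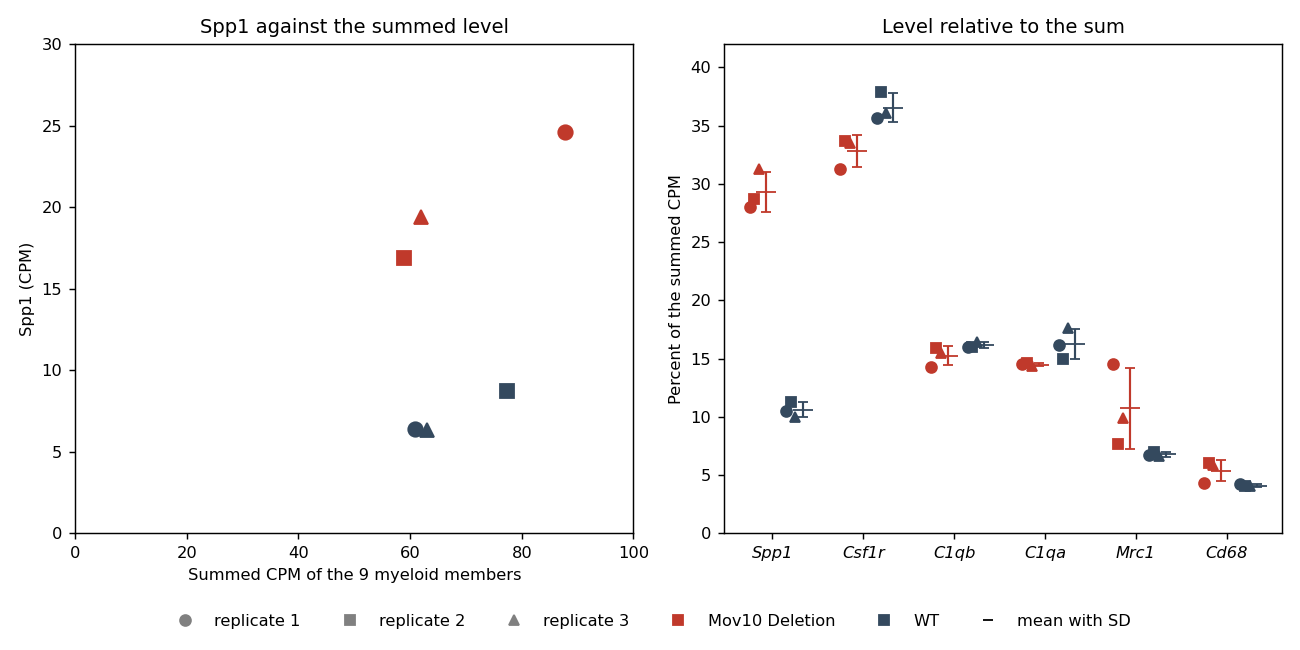
Left, *Spp1* (CPM, y axis) against the summed CPM of the 9 myeloid members (x axis), 1 point per library. Right, the level of 6 members as a percentage of that sum, with the mean and SD of 3 libraries (compare genotypes within a gene, since CPM is not corrected for length): *Spp1* stands at 28.0% to 31.3% in Deletion and 10.01% to 11.3% in WT, while the left panel shows overlapping sums.

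Per length, *Spp1* changed its place in the order of the members. In WT the mean TPM was 20.1 ± 2.64 (SD, n = 3) for *C1qb*, 19.0 ± 1.48 for *C1qa* and 18.4 ± 7.63 for *Csf1r*, which did not differ beyond their spread. *Spp1* followed at 12.7 ± 2.58 TPM and *P2ry12* at 9.89 ± 1.89 TPM, and their ranges over WT libraries overlapped. *Cd68* stood at 5.36 ± 0.607 TPM, *Cx3cr1* at 3.02 ± 0.486 TPM, *Aif1* at 2.27 ± 0.637 TPM, *Mrc1* at 1.91 ± 0.314 TPM and *Tmem119* at 1.88 ± 0.515 TPM. In Deletion *Spp1* came first at 35.7 ± 7.16 TPM, above *C1qb* at 19.9 ± 3.80, *Csf1r* at 19.7 ± 2.89 and *C1qa* at 18.3 ± 4.63 TPM. The lowest *Spp1* library in Deletion, at 29.0 TPM, was above every Deletion library of those 3 genes. *Mrc1* stood at 3.27 ± 1.80 TPM in Deletion, and *Tmem119* was last at 1.34 ± 0.314 TPM.

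Most of the *Spp1* counts were assigned to a single transcript. Spp1-201, which starts at the first base of the annotated gene, held 86.6%, 88.6% and 87.1% of them in Deletion and 80.2%, 83.8% and 80.6% in WT. Spp1-205, which starts further downstream, held 12.5%, 11.4% and 12.3% in Deletion and 18.6%, 16.2% and 19.1% in WT. The share of Spp1-205 was lower in all Deletion libraries, although its own level was higher there, at 3.21 to 5.23 TPM against 2.01 to 2.46 TPM. *Spp1* lies on chromosome 5 (GRCm39, chr5:104582165-104589235, plus strand) beside other genes of secreted phosphoproteins. Within 500 kb on either side, 12 of 24 annotated genes were tested, *Spp1* included. Besides *Spp1*, *Sparcl1*, a matricellular protein gene of astrocytes and vessels, and *Pkd2*, a cation channel gene, were called, at log2 fold changes of 0.14 and 0.16. *Ibsp*, bone sialoprotein, was at 0.428, 0.629 and 0.602 CPM in Deletion and at 0.859, 0.767 and 0.820 CPM in WT, with a log2 fold change of -0.54 (limma-trend, adjusted p = 0.0682). *Dmp1*, a protein of mineralized matrix, did not pass the test (log2 fold change 0.17, adjusted p = 0.518), *Mepe* had no counts in any library, and *Dspp* was at most 0.0697 CPM.

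The 250 bases before the start of the most expressed transcript of each member were read from the GRCm39 genome and searched on both strands for GAGGAA, the core bound by PU.1, the transcription factor that founds the myeloid lineage. The most expressed transcripts of *P2ry12*, *Cx3cr1*, *Csf1r* and *Aif1* start inside the annotated gene, so their windows do not lie before the gene. Over the same window of the 14601 protein-coding genes tested, 22.8% held GAGGAA. Of the 10 members 3 held it. Their windows are shown, with GAGGAA or its reverse complement in capitals, beside that of *Spp1*, the member with the largest difference between genotypes, which held none. The sequences run 5′ to 3′ on the strand of the gene and end at the base before the start, at chr2:14233901-14234150 (plus strand) for *Mrc1*, chr11:69557068-69557317 (minus strand) for *Cd68*, chr4:136613512-136613761 (minus strand) for *C1qb* and chr5:104581915-104582164 (plus strand) for *Spp1*.
Mrc1: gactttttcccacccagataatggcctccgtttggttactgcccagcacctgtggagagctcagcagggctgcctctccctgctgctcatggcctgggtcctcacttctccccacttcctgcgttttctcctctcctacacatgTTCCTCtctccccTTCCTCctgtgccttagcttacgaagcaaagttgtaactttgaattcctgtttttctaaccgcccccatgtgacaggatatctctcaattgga
Cd68: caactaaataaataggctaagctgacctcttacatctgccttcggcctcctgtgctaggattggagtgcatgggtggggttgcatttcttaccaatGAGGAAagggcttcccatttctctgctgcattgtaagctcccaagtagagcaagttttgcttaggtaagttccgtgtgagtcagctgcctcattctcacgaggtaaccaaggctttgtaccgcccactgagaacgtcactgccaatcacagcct
C1qb: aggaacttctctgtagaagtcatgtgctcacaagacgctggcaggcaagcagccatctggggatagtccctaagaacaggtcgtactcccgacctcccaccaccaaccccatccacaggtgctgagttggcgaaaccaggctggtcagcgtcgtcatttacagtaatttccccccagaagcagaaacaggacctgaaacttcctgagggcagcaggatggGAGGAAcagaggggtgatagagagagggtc
Spp1: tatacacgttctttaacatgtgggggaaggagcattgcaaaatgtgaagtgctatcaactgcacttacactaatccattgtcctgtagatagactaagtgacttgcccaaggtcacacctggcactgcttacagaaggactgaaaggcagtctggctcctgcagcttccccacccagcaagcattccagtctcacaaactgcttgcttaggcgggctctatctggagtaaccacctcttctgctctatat

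The *Mrc1* window held 2 copies that began 106 and 93 bases before the start, *Cd68* held 1 at 154 bases and *C1qb* 1 at 30 bases. The AP-1 motif TGANTCA was found for 3 members (*Cd68*, *Tmem119* and *Csf1r*) and in 4.41% of all windows, and the RUNX motif TGTGGT for 2 members (*Cx3cr1* and *C1qa*) and in 11.4% of all windows. The *Spp1* window held none of the 3 motifs. A match is a description of these letters, and a window without one says nothing of the factor.

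Genes assigned to the same cells that had not been used to choose the members were then counted in 5 lists. Together these held 96 genes without the members, 88 of them tested. Some of them, such as *Tgfbr1* and *Apoe*, are expressed by other brain cells too, so the counts are not of myeloid cells alone. The lists were chosen with earlier results of these data known, so the counts are a description. By limma-trend 8 genes were called higher in Deletion and 6 lower, 15.9% in all against 24.7% of all genes. The median log2 fold change of the 88 genes was 0.01, beside 0.0056 for all tested genes. Without Deletion replicate 1 the counts were 6 higher and 11 lower, and over all 16745 tested genes they were 2713 higher and 2655 lower. The other settings, given at the end, gave between 0 (limma-trend without a filter on low counts) and 18 higher and between 2 and 11 lower.

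Of 16 genes of microglial identity 2 were called, both lower. At an unadjusted p of 0.05, limma-trend gave 1 higher and 3 lower, and edgeR and DESeq2 each called 2 lower. *Slco2b1*, an organic anion transporter, was measured at 14.1, 11.1 and 11.5 CPM in Deletion and at 15.8, 17.9 and 15.7 CPM in WT. Its groups did not overlap, and the log2 fold change was -0.45 (SE 0.067, adjusted p = 0.00428). *Tgfbr1*, a receptor for TGF-beta, on which microglia depend and which other brain cells express too, had a log2 fold change of -0.18 (adjusted p = 0.0236). *Tgfbr1* held 81.5 of the 201 CPM to which this list summed in Deletion, and 93.7 of 211 CPM in WT. *Ctss*, cathepsin S, did not pass the test (log2 fold change -0.26, adjusted p = 0.0611).

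Of 30 tested genes shared by microglia, macrophages and monocytes, 1 was called, and it was higher. This was *Cd180*, a receptor related to Toll-like receptors, measured at 3.49, 2.98 and 2.77 CPM in Deletion and at 1.83, 2.02 and 1.47 CPM in WT. All its Deletion libraries lay above all WT libraries, with a log2 fold change of 0.72 (SE 0.132, adjusted p = 0.00914). The lineage factors did not pass the test: the log2 fold change was -0.09 for *Spi1*, which encodes PU.1 (adjusted p = 0.639), and -0.25 for *Irf8* (adjusted p = 0.139). *Tyrobp* and *Trem2*, which form a signalling receptor of microglia, had log2 fold changes of 0.16 and -0.16 (adjusted p = 0.49 and 0.44).

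Of 14 border macrophage genes 9 were tested, and 2 were called higher. *Lyve1* had a log2 fold change of 0.92 (adjusted p = 0.0187) and *Dab2*, an endocytic adaptor also made by endothelium, one of 0.32 (adjusted p = 0.00951). Both overlapped between the genotypes, and in both Deletion replicate 1 was the highest library. Without that library the log2 fold change was 0.19 for *Lyve1* and 0.12 for *Dab2*, and no border macrophage gene was called by limma-trend. With it, edgeR and DESeq2, run without the factors of unwanted variation, also called none, and 4 had an unadjusted p under 0.05 by limma-trend. The mean of the other Deletion libraries was 0.855 times the WT mean for *Lyve1* and 1.17 times the WT mean for *Mrc1*. *Cd163*, a haemoglobin scavenger receptor, was at 2.74 CPM in Deletion replicate 1 and between 0.325 and 1.12 CPM in the other 5 libraries (adjusted p = 0.352).

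**Figure D3:**
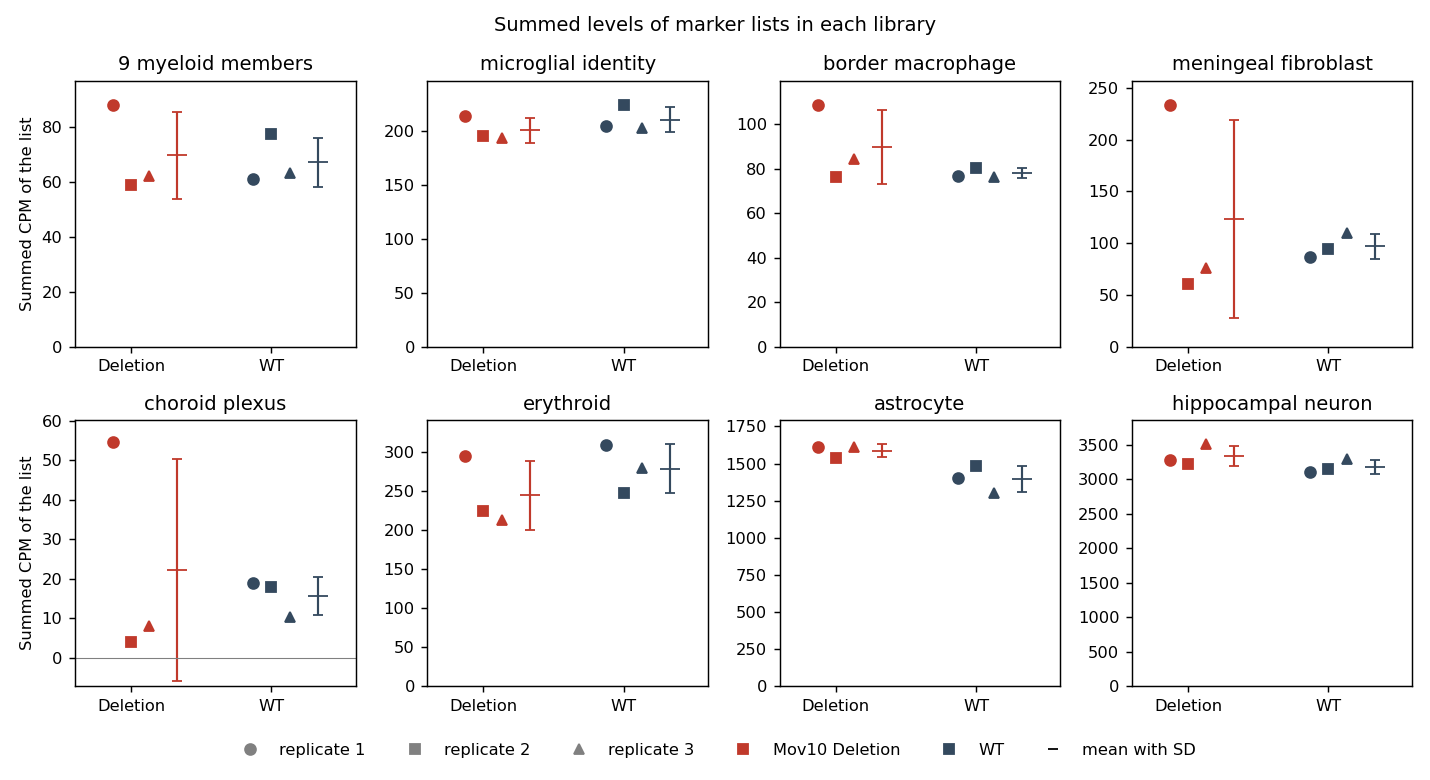
Summed CPM of marker lists in each library (y axis from 0, or below 0 where the SD bar reaches there; points are libraries with the replicate number as shape, bars the mean with SD of 3 libraries). Deletion replicate 1 stands apart in the meningeal fibroblast (233 CPM) and choroid plexus (54.7 CPM) lists and is the highest library for the 9 myeloid members (87.8 CPM).

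A list of 22 genes of the phagocytic state of microglia in early postnatal development, to which *Spp1* is often assigned, had 20 genes tested, 3 called higher and 4 lower. *Csf1*, a ligand of the CSF1 receptor, had a log2 fold change of 0.28 (adjusted p = 0.0106) and one of 0.17 without Deletion replicate 1 (adjusted p = 0.0639). Of the others called higher, *Ctsz*, cathepsin Z, had a log2 fold change of 0.29 (adjusted p = 0.0356) and *Fabp5*, a fatty acid binding protein, one of 0.14 (adjusted p = 0.0238). The lowest were *Cd9*, a tetraspanin at -0.31 (adjusted p = 0.00197), and *Ctsl*, cathepsin L at -0.21 (adjusted p = 0.0143). *Gpnmb*, a glycoprotein of activated macrophages, was at 1.77, 1.86 and 2.38 CPM in Deletion and at 1.72, 1.93 and 1.81 CPM in WT, and it did not pass the test (adjusted p = 0.509). *Igf1*, a growth factor (-0.18, adjusted p = 0.079), and *Lpl*, lipoprotein lipase (0.27, adjusted p = 0.13), did not pass either. *Clec7a* was listed at 0 counts in 2 libraries and was at most 0.529 CPM, and *Itgax* was between 0.318 and 0.606 CPM. Many genes of this list, such as *Fabp5*, *Apoe* and *Cd9*, are also expressed by astrocytes, neurons or progenitors.

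Of 13 complement genes outside the members 2 were called, both higher. *C4b*, the component that follows C1 in the classical pathway, was measured at 1.68, 1.76 and 2.74 CPM in Deletion and at 0.684, 1.08 and 0.805 CPM in WT. Its groups did not overlap, and the log2 fold change was 1.28 (SE 0.251, adjusted p = 0.0113). *Cd55*, an inhibitor of complement convertases, had a log2 fold change of 0.48 (adjusted p = 0.0260), also without overlap. *C3*, the central component, was between 0.184 and 0.416 CPM (adjusted p = 0.294), and its receptor *C3ar1* had a log2 fold change of 0.04 (adjusted p = 0.844). Of 8 astrocyte genes 3 were called, each of them higher, among them *Aqp4* at a log2 fold change of 1.15 (adjusted p = 0.00279) and *Gfap* at 0.64 (adjusted p = 0.00376). Their part in the levels of *Spp1* and *C4b* was not tested.

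**Figure D4:**
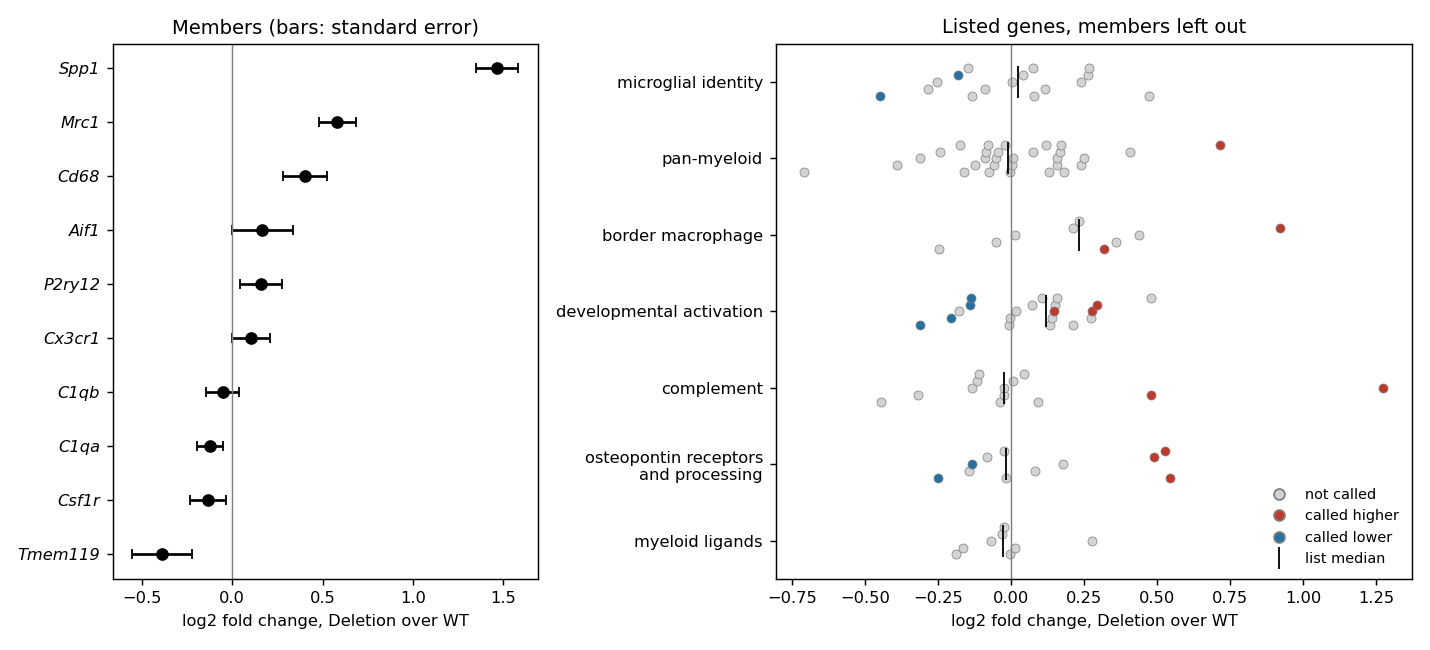
Fitted log2 fold change, Deletion over WT (x axes). Left, the 10 members with their standard errors, from -0.39 for *Tmem119* to 1.47 for *Spp1*. Right, tested genes of 7 lists without the members, coloured by the call at an adjusted p of 0.05, with the list median as a black bar, which lies between -0.03 (myeloid ligands) and 0.23 (border macrophage).

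Apart from *Csf1*, which stood in another list and was called higher, signals that reach these cells from neurons and other brain cells were listed as 8 ligands. Of these, among them *Cx3cl1* (fractalkine), *Il34*, *Tgfb1*, *Tgfb2*, *Gas6*, *Cd200* and *Cd47*, 0 were called by limma-trend, 0 by edgeR and 0 by DESeq2, and 0 had an unadjusted p under 0.05. The smallest adjusted p was 0.128, for *Pros1*, and without Deletion replicate 1 limma-trend called 1 ligand lower. *Cx3cl1*, the ligand of CX3CR1, was at 40.2, 48.9 and 39.03 CPM in Deletion and at 43.1, 42.7 and 38.3 CPM in WT (log2 fold change 0.01). *Il34*, the ligand of CSF1R made by neurons, was at 3.18, 1.98 and 1.79 CPM in Deletion and at 1.5, 2.17 and 2.16 CPM in WT (log2 fold change 0.28, adjusted p = 0.21). Of 14 inflammatory genes 5 could be tested and 1 was called. This was *Il18*, a cytokine of the interleukin-1 family, at 6.22, 6.24 and 5.65 CPM in Deletion and 3.66, 3.53 and 2.78 CPM in WT (log2 fold change 0.79, adjusted p = 0.00240). *Tnf*, *Il1b* and *Il6* stayed below 0.25 CPM in all libraries.

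Receptors and processing enzymes of osteopontin were called in both directions. Of 15 listed genes 11 were tested, of which limma-trend called 3 higher and 2 lower, 45.5% against 24.7% of all genes. By edgeR 3 were called higher and 1 lower, and by DESeq2 3 higher and 2 lower. Without Deletion replicate 1 limma-trend called 2 higher and 4 lower, and 5368 of all 16745 tested genes in either direction. *Itga4*, the integrin alpha 4 chain, was measured at 36.6, 36.0 and 37.3 CPM in Deletion and at 27.1, 23.1 and 23.6 CPM in WT. Its libraries did not overlap, and its log2 fold change was 0.54 (SE 0.059, adjusted p = 0.00176). *Cd44*, the hyaluronan receptor that also binds osteopontin, was measured at 5.63, 5.42 and 4.62 CPM in Deletion and at 3.63, 3.89 and 3.33 CPM in WT. It did not overlap either, with a log2 fold change of 0.49 (SE 0.109, adjusted p = 0.0172). *Itgb3*, the beta 3 chain of the vitronectin receptor, was at 3.12, 2.24 and 2.33 CPM in Deletion and at 1.66, 2.01 and 1.33 CPM in WT (log2 fold change 0.53, adjusted p = 0.0363). Without Deletion replicate 1 the log2 fold change of *Itgb3* was 0.41 (adjusted p = 0.0864), while *Itga4* and *Cd44* were still called at 0.55 and 0.44.

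The partners of these chains were not called higher. *Itgav*, the alpha V chain that pairs with beta 3 and beta 5, had a log2 fold change of -0.02 (adjusted p = 0.85), and *Itgb1*, which pairs with alpha 4, one of -0.08 (adjusted p = 0.128). *Itga9*, the alpha 9 chain, was above WT in all Deletion libraries and did not pass the test (0.18, adjusted p = 0.143), and neither did *Itga5* (-0.14, adjusted p = 0.161) or *Itga8* (-0.02, adjusted p = 0.889). *Itgb5* was called lower, with a log2 fold change of -0.25 (adjusted p = 0.0195), and its libraries overlapped. *Fam20c*, the kinase that phosphorylates osteopontin, was called lower at -0.14 (adjusted p = 0.0360). Without Deletion replicate 1, *Itgb1* (-0.13) and *Itga5* (-0.23) were called lower too, beside *Itgb5* and *Fam20c*. Of the proteases that cut osteopontin, *Mmp9* did not pass the test (log2 fold change 0.08, adjusted p = 0.608) and *Mmp3* and *Mmp7* had no counts in any library. *Itgb6* was below the limit for testing, at most 0.118 CPM. Most of these receptors are expressed by many cell types, and the tissue values do not say on which cells they lie.

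**Figure D5:**
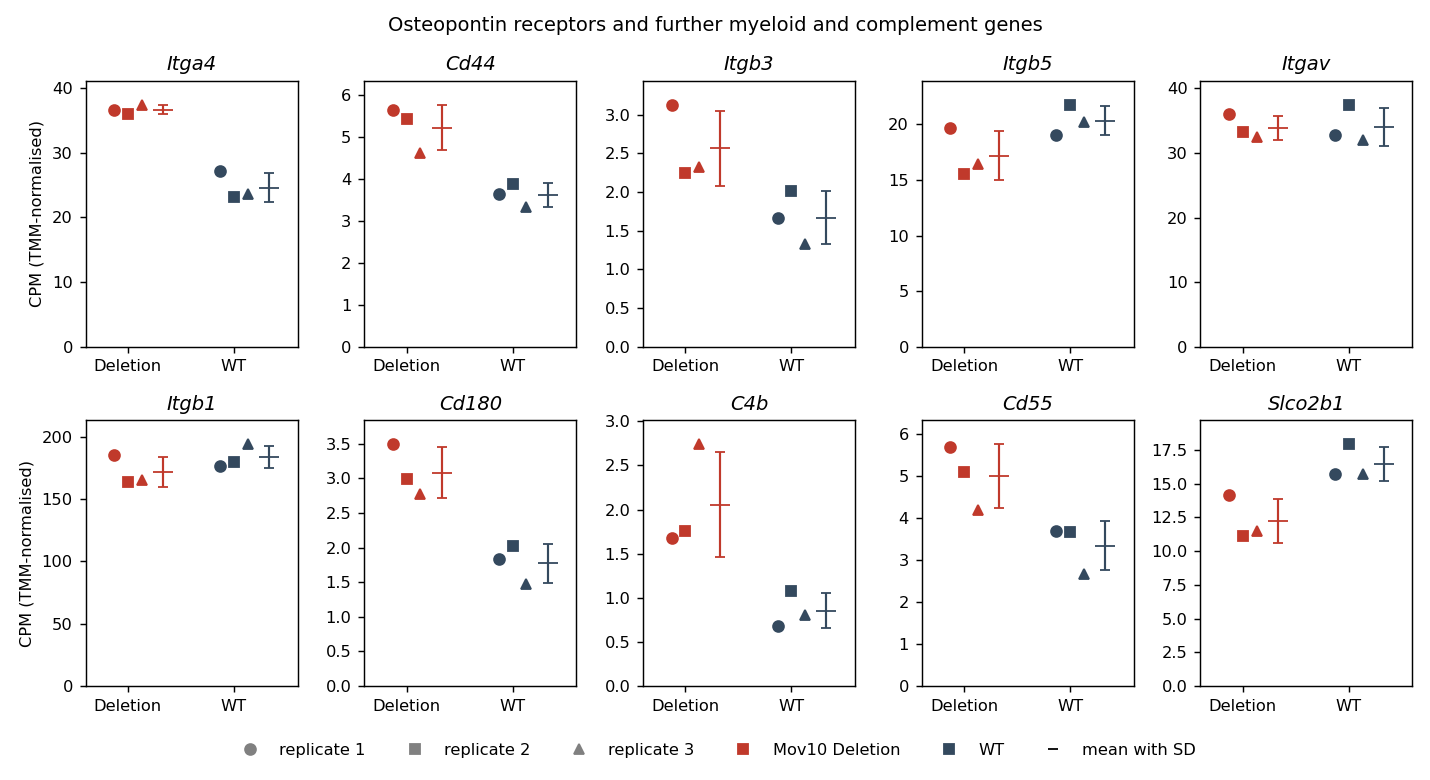
Level in every library of 6 integrin chains and receptors of osteopontin and of 4 myeloid and complement genes called between the genotypes. The y axes are CPM after TMM normalization, points are libraries and bars the mean with SD of 3 libraries: *Itga4* (36.0 to 37.3 against 23.1 to 27.1 CPM), *Cd44*, *Itgb3*, *Cd180*, *C4b* and *Cd55* are higher in all Deletion libraries and *Slco2b1* is lower.

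The *Spp1* level was also set beside markers of other cells that can make it. *Bglap* and *Bglap2*, the osteocalcin genes that define osteoblasts, were at or below 0.014 CPM in all libraries, and of 6 osteoblast genes 3 were tested and 0 called by limma-trend, edgeR or DESeq2, with 1 at an unadjusted p under 0.05 (summed level 3.80 to 4.53 CPM in Deletion and 3.18 to 4.02 CPM in WT). The meningeal fibroblast and choroid plexus sums of Deletion replicates 2 and 3 were below every WT library, and *Spp1* was at 16.9 and 19.4 CPM there. The summed level of 10 hippocampal neuron genes was 3220 to 3504 CPM in Deletion and 3108 to 3300 CPM in WT. Which cells the *Spp1* RNA came from was not tested. Of 8 meningeal fibroblast genes 1 was called higher, *Lum*, a matrix proteoglycan (log2 fold change 0.69, adjusted p = 0.0283). Of 8 choroid plexus genes 7 were tested and 1 was called lower, *Ttr*, which encodes transthyretin (log2 fold change -1.33, adjusted p = 0.00924). It was nevertheless at 45.6 CPM in Deletion replicate 1 and at most 13.4 CPM in the other libraries, with means of 16.7 CPM in Deletion and 10.1 CPM in WT. The sign for *Ttr* depended on the setting, from -2.65 to 0.74, and 11 of the 19 alternatives called it lower. By edgeR and by DESeq2 0 choroid plexus genes were called. Without Deletion replicate 1, 6 of the 8 meningeal fibroblast genes and 5 of the 7 tested choroid plexus genes were called lower. In that fit 2655 of all 16745 tested genes were called lower. The summed level of 8 erythroid genes was 213.4 to 294.8 CPM in Deletion and 247.1 to 309.0 CPM in WT, with 3 genes called, each of them lower.

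Among 13383 protein-coding genes whose mean reached 1 CPM, the log2 CPM most like *Spp1* over the 6 libraries was that of *Bcan* (Pearson's r = 0.9985), followed by *Apln*, *Haus7*, *Xylt1* and *Hpf1* (r = 0.994 to 0.997). Of the myeloid members *Cd68* was the most like it (r = 0.968, rank 100) and *Tmem119* the least (r = -0.47). These values rest mainly on the distance between the genotypes. With the genotype means taken off, *Apoe* came first (r = 0.9985), followed by *Ccdc141*, *Klhl29*, *Fgf1* and *Casp8*, and *Csf1r* was the nearest member (r = 0.977, rank 26). *Apoe*, which encodes the lipid carrier apolipoprotein E, was at 304, 238 and 259 CPM in Deletion and at 242, 296 and 243 CPM in WT and did not differ by the test between the genotypes (log2 fold change 0.01, adjusted p = 0.897). For the mean of the 9 myeloid members with the genotype means taken off, the nearest 5 genes were *Gm57852*, *Slco2b1*, *Vdac3*, *Sgce* and *Tspan12* (r = 0.994 to 0.998). With the genotype means left in, they were *Sgce*, *Stk32a*, *Zfp747*, *Emp2* and *Fermt3* (r = 0.982 to 0.994). With 6 points and 13383 genes such values are a description.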

How the data were processed

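Poly(A)-selected, strand-specific libraries were prepared by the authors from hippocampi of pooled newborn pups, and the genotype and replicate number were taken from the sample titles. Transcript abundance was estimated by the authors with Salmon 1.4.0, using the mouse transcriptome with GRCm39 as decoy. The deposited estimated counts were fractional and without normalization, and the TPM deposited by the authors were corrected for effective length and library size. Of 139225 transcripts, 137570 were matched to GENCODE M39 on GRCm39. The others held 0.589% to 0.600% of the counts and were left out. *Fcrls* was matched as *Fcrl2*, its name in that release.

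Counts and TPM were summed per gene. Genes with at least 0.25 CPM in 3 libraries were tested with limma-trend (limma 3.58.1, edgeR 4.0.16, R 4.3.3) on log2 CPM (TMM, prior count 2) with 2 factors of unwanted variation as covariates. The factors were estimated as in RUVs, written out in R, since the function of RUVSeq is not named in the study. P-values were adjusted over all tested genes (Benjamini-Hochberg, 0.05). They measure the spread between pools that the factors left, with 2 residual and 5.89 prior degrees of freedom, and are two-sided. Fits with 1 library left out kept the 2 factors, so fewer residual degrees of freedom remained and their calls rest on less. CPM values are not corrected for the factors. The edgeR (quasi-likelihood) and DESeq2 fits held the genotype alone, without these factors, on counts rounded to whole numbers. The procedure was also run on simulated counts, in a simpler setting than these data, and nothing is read from that run. Library totals of 71400300 to 86207971 counts put genes far below 1 CPM on few counts.

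The members and the gene lists were chosen with earlier results of these data known. Listed genes were named where called with the highest or lowest changes or highly expressed, together with receptors, family members and ligands, and some further genes were named after their values were seen. Same-numbered samples did not deviate together (correlations of their deviations 0.011, -0.071 and 0.043 for replicates 1, 2 and 3), so they were not treated as pairs.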

Additional observations from a re-analysis of the deposited data

How the results depend on the processing

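The log2 fold change of *Spp1* stayed between 1.34 and 1.62 under all 19 alternatives, with 1.5 under the replicate block. The median log2 fold change of the 9 myeloid members, 0.11 as reported, lay between -0.06 (without Deletion replicate 1, with the opposite sign) and 0.19. Neither moved beyond the spread between replicates under any alternative. The count of all genes called, 4137 as reported, was 2030 with a sex score in place of the factors, 925 without a filter on low counts and 2460 on log2 TPM, and from 2064 (without WT replicate 2) to 6089 when 1 library was left out. The listed myeloid genes called higher, 8 as reported, numbered 5 without factors, 3 under the replicate block, 2 with the sex score, 3 by edgeR, 2 on log2 TPM and 0 by limma-trend without a filter, where the correction runs over many more genes. Leaving out 1 library gave 6 to 18, with 18 without Deletion replicate 2 and 15 without Deletion replicate 3. Without those libraries 6089 and 5193 of all genes were called. Those called lower, 6 as reported, numbered 3 under the replicate block, 3 with the sex score and 2 without a filter, and from 2 (without WT replicate 2) to 11 (without Deletion replicate 1) when 1 library was left out. Apart from the correction without a filter, the cause of these changes was not tested. Same-numbered samples did not deviate together, so the block shares only a number. *Aif1* and *Tmem119* rested on 53.0 to 175.0 counts a library.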
